A study of Ceratopteris richardii with 6 samples.

Results

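The most abundant transcripts of callus of the fern Ceratopteris richardii were taken as the genes with the locus tag prefix KP509_ whose FPKM averaged at least 1000 over 6 RNA-seq libraries. FPKM relate the fragments of a gene to its transcript length and to all fragments mapped in that library, so levels of different genes can be set beside each other. Of 30001 gene IDs, 28430 carried this prefix, and 85 of them met the rule, 0.283% of all IDs. The libraries came from 3 replicates of proliferating callus and 3 of differentiating callus. No genotype, growth medium, treatment or age is given for either group in the sources used here. The sample titles begin with BA in the proliferating and with MS in the differentiating group, which the labels do not explain, so culture medium or conditions cannot be told apart from the state of the callus. Nothing says whether the replicates came from separate cultures, so p-values measure only the spread between these libraries, which may be technical.

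Callus is unorganised plant tissue kept in culture, from which shoots, roots or whole plants can form again. In growing plant tissue a small number of genes usually supplies a large part of the messenger RNA, commonly those for ribosomal proteins, translation factors, cell wall and stress proteins and, in green tissue, parts of the photosynthetic machinery. Since FPKM are relative to all fragments mapped in a library, a rise in a few very abundant transcripts can lower the values of all others. Neither the files nor the assembly table pairs the locus tags with gene names or products, so the members are described here by level, rank, covariation and place, with no role given to any of them.

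Summed FPKM ran from 953954 to 1027755 per library. The number of reads is unknown. The low values fell on steps, and the most frequent ratio between proliferating 1 and another library was 1.00 to 1.02. It was held by 72 to 127 of 4111 to 4245 genes. Values kept to 2 decimals also give ties at a ratio of 1, so these ratios cannot settle how close the libraries were in mapped fragments. Libraries did not fall cleanly into their groups. Among the 85 members, differentiating 3 ranked the genes most like proliferating 1 (Spearman rho 0.895) and less like differentiating 1 (0.731) and differentiating 2 (0.61). Differentiating 1 and 2 had the highest rank correlation of all 15 pairs of libraries, 0.935, and proliferating 2 stood at 0.751 and 0.799 with its own group and at 0.789 and 0.72 with differentiating 1 and 2. Rank correlations averaged 0.781 within groups and 0.67 between them, over 85 genes that are not independent replicates. The largest tested differences are also given with libraries left out, while set levels and correlations are given over all 6 unless stated.

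The 85 members held a similar part of all FPKM in every library. Their share of summed FPKM was 16.9%, 17.2% and 18.6% in proliferating 1, 2 and 3 and 17.6%, 18.0% and 18.1% in differentiating 1, 2 and 3, so the groups overlapped. The means were 17.6% ± 0.869 in proliferating and 17.9% ± 0.268 in differentiating callus (SD, n = 3). The difference of 0.323 percentage points was smaller than the SD of the proliferating libraries. It was 0.816 without proliferating 3 and -0.0043 without proliferating 1. No test is given, as the members were chosen by their level. In bulk tissue such as this, fewer cells of a type and less RNA per cell cannot be told apart.

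**Figure D1:**
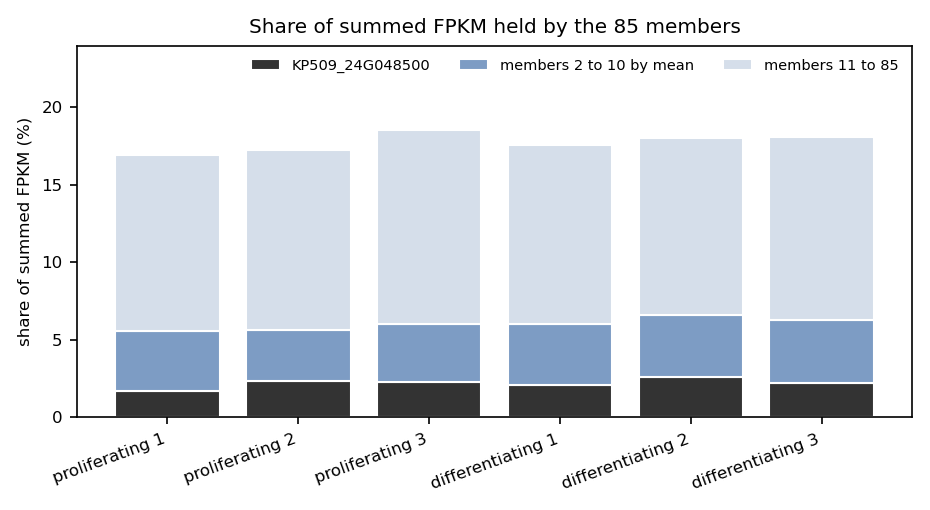
Share of summed FPKM (percent, from 0) held by the 85 members in each library, split into KP509_24G048500, the members ranked 2 to 10 by mean and the members ranked 11 to 85. The whole bar is 16.9% to 18.6% high, and the lowest and the highest bar are both proliferating libraries.

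Within the share, the members did not all move the same way. The mean share was higher in differentiating callus for 51 members, which added 1.71 percentage points, and lower for 34 members, which took away 1.39 points. KP509_24G048500 alone held 2.1% ± 0.337 in proliferating and 2.31% ± 0.28 in differentiating callus (SD, n = 3). Members 2 to 10 by mean held 3.67% ± 0.289 and 3.99% ± 0.123, and members 11 to 85 held 11.8% ± 0.624 and 11.6% ± 0.167. The 10 most abundant members made up 34.1% of the members' FPKM and the 21 most abundant made up 50% of it. Means were skewed toward the threshold: 47 members averaged 1000 to 1500 FPKM, 26 averaged 1500 to 3000 and 12 averaged 3000 or more, with a median of 1393 FPKM.

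KP509_24G048500 stood far above every other gene. It had 16375, 22847 and 23052 FPKM in proliferating 1, 2 and 3 and 20952, 27068 and 20857 FPKM in differentiating 1, 2 and 3, ranked first in 6 of 6 libraries and averaged 3.75 times the next member. Proliferating 1 was its lowest library and differentiating 2 its highest, and the groups overlapped (log2 difference 0.15, SE 0.28, limma adjusted p 0.84).

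Below it, KP509_31G006300 and KP509_12G011500 averaged about the same but varied differently. KP509_31G006300 had 3387, 5159.8 and 4219.9 FPKM in proliferating and 7618, 10481 and 4125 FPKM in differentiating callus. It was high in differentiating 1 and 2, while differentiating 3 lay inside the proliferating range. KP509_12G011500 had 5692, 4085 and 7107 FPKM in proliferating and 4716, 5669 and 7532 FPKM in differentiating callus. Here differentiating 3 and proliferating 3 were the highest and proliferating 2 the lowest, and the groups overlapped. KP509_31G035800 had 4804, 3338 and 3414 FPKM in proliferating 1 to 3 and 4646, 3589 and 5110.1 FPKM in differentiating 1 to 3, with differentiating 3, proliferating 1 and differentiating 1 at the top.

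Of the remaining 6 among the 10 most abundant, 2 had groups that did not overlap. KP509_21G032100 had 4106, 4411 and 4439 FPKM in proliferating and 3866, 3872 and 3976 FPKM in differentiating callus, all differentiating values below all proliferating ones by a narrow gap, and was among the steadiest members. KP509_19G020700 had 3164, 3162 and 3338 FPKM in proliferating and 4326, 4131 and 4023 FPKM in differentiating callus, all differentiating values above. KP509_11G012100 ranged from 3256 FPKM in proliferating 1 to 4747 FPKM in proliferating 3, with the differentiating libraries between them. KP509_32G017900 was highest in proliferating 1 at 4380 FPKM and lay between 3239 and 3558 FPKM in the other 5 libraries. For KP509_14G044400 the differentiating libraries had 3789.9, 4238 and 3233 FPKM and the proliferating ones 3598, 2931 and 2893 FPKM. KP509_35G022000 had 4713, 2783 and 4584 FPKM in proliferating and 2199.8, 1799 and 4088 FPKM in differentiating callus, low in differentiating 1 and 2 and high in the libraries proliferating 1, proliferating 3 and differentiating 3.

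**Figure D2:**
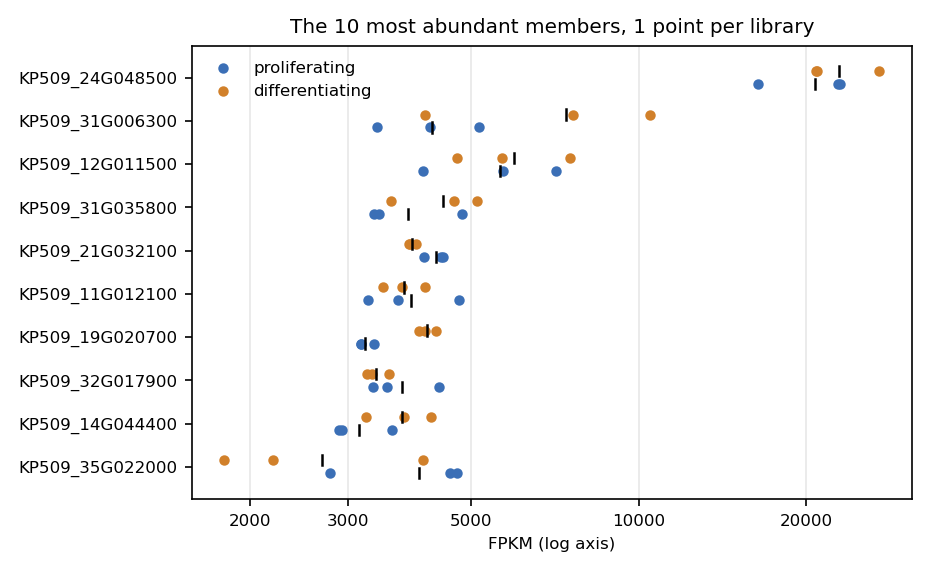
FPKM (log axis) of the 10 members with the highest mean, with 1 point per library, proliferating in blue and differentiating in orange, and a black bar at each group mean (n = 3). KP509_24G048500 lies apart at 16375 to 27068 FPKM, and the groups are apart only for KP509_21G032100 and KP509_19G020700.

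Ranks were taken among all 30001 IDs. In all, 15 genes reached the top 10 of any library, and 5 members stayed within the top 10 in all 6. Of the 85 members, 58 stayed within the top 100 and 80 within the top 200 in every library, and the median member moved over 36 ranks between its best and its worst library. For 11 members the ranks spread over more than 100 places. The widest were KP509_12G020300 (rank 18 to 594), KP509_15G064100 (29 to 545), KP509_12G020400 (9 to 493), KP509_01G016800 (34 to 494) and KP509_03G093300 (18 to 282). The first 4 of these ranked lowest in differentiating 2, and KP509_03G093300 ranked highest there. A library's 85 most abundant genes included 69 to 78 of the members.

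The threshold cut through a continuous range of levels. In 51 members every library was at 1000 FPKM or more, and in the other 34 at least 1 library was below. Just inside it, KP509_20G024700 averaged 1039 FPKM, KP509_31G025200 1035 FPKM and KP509_37G026700 1031 FPKM. Just outside, KP509_15G041200 averaged 999 FPKM, KP509_39G018600 994 FPKM and KP509_18G048600 968 FPKM. KP509_15G041200 reached 1105 and 1041 FPKM in differentiating 1 and 2, and KP509_39G018600 reached 1231 FPKM in proliferating 3.

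Most members were steady across the libraries. In 70 of the 85, 82.4%, the highest library was less than 2-fold above the lowest, against 78.6% of the 1634 genes that averaged 100 to 1000 FPKM. The median SD of log2(FPKM + 1) over the 6 libraries was 0.233 for the members and 0.211 for those genes. The steadiest member, KP509_06G067700, had 1311, 1364 and 1315 FPKM in proliferating 1 to 3 and 1286, 1330.2 and 1195 FPKM in differentiating 1 to 3, a ratio of highest to lowest of 1.14. It was followed by KP509_37G059400 at 1468 to 1714 FPKM, KP509_35G029400 at 1139 to 1358 FPKM, KP509_21G032100, and KP509_32G017100 at 1321 to 1574 FPKM. At the other end, the highest library was 11.7-fold above the lowest for KP509_12G020400, 10.8-fold for KP509_12G020300, 6.52-fold for KP509_15G064100, 5.10-fold for KP509_01G016800 and 4.99-fold for KP509_03G093300. Proliferating 1 was the lowest library for 27 members and differentiating 2 the highest for 32. The median level of the members ran from 1358 FPKM in proliferating 1 to 1533 FPKM in proliferating 3.

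No member passed the test between the groups. The test was limma on log2(FPKM + 1), with p-values adjusted by Benjamini and Hochberg over the 22371 genes that averaged at least 1 FPKM, and all 85 members passed that filter because of how they were chosen. At an adjusted p under 0.05, 0 of 85 members were called, with a background of 0% of all tested genes. At an unadjusted limma p under 0.05 there were 6 members, 7.06%, against 12.7% of all tested genes. Of these, 2 were higher in differentiating callus against a background of 5.53%, and 4 were lower against 7.18%. All 3 libraries of one group lay above the other in 17 members, 20%, against 17.1% of tested genes. In 7 of these the differentiating libraries were higher (background 7.83%) and in 10 they were lower (background 9.28%). The log2 difference reached 1 in either direction in 7 members, 8.24%, against 3.48%, with 2 higher (background 2.01%) and 5 lower (background 1.47%). Without differentiating 2 this count was 1 member, 1.18% against 1.89%, and without proliferating 3 or differentiating 1 it was 4 members, 4.71% against 2.62% and 2.81%. The background depends on the pseudocount, at 6.34% with 0.1 and 0.796% with 10, while the members numbered 7 with either. The median log2 difference was 0.07 over the members and -0.0011 over all tested genes, with a median SE of 0.19 and 0.17.

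The counts at a p threshold and of groups apart rose without differentiating 3. Without it limma called 4 members, 1 higher and 3 lower, with 1.84% of all tested genes called. The members at an unadjusted limma p under 0.05 then numbered 15, 17.6% against 20.5% of all tested genes, and 49 members had groups that did not overlap, against a background of 40.1%, where fewer libraries have to be apart. The count at an unadjusted p under 0.05 fell to 3, or 3.53%, without proliferating 2 (background 14.3%) or differentiating 2 (7.42%). It fell to 2, or 2.35%, without proliferating 3 (background 7.08%) or differentiating 1 (5.8%). Without proliferating 1, 27 members had groups that did not overlap, with a background of 26.8%.

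**Figure D3:**
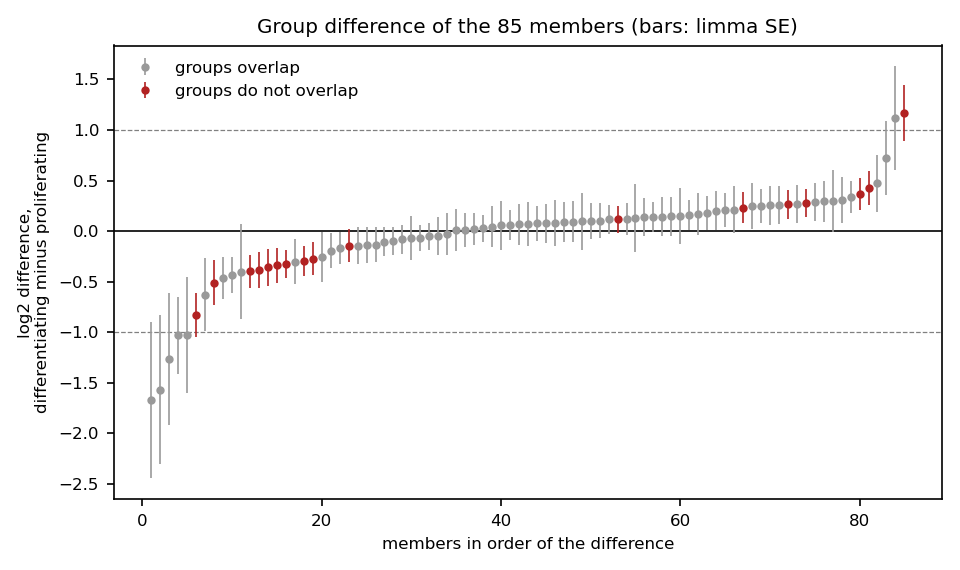
Log2 difference (differentiating minus proliferating, on the log2(FPKM + 1) scale) of the 85 members in order of size, with bars for the limma SE and red points where the 3 libraries of one group all lie on one side of the other. Most members lie between -0.5 and 0.5, the 2 lowest are KP509_12G020400 and KP509_12G020300 with bars that reach far, and none of the 5 lowest points is among the 17 red ones.

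Among members with higher values in differentiating callus, KP509_27G039300 had the largest difference. It had 725, 1121 and 999 FPKM in proliferating 1, 2 and 3 and 2153, 2825 and 1513 FPKM in differentiating 1, 2 and 3, group means of 948 ± 203 and 2164 ± 656 FPKM (SD, n = 3), 2.28-fold higher. All differentiating values were above all proliferating ones, and differentiating 3 was the lowest of them. On the log2 scale the difference was 1.17 (SE 0.27, limma adjusted p 0.306), and without differentiating 3 it was 1.40 with an adjusted p of 0.0485.

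KP509_03G093300 had 531, 867 and 493 FPKM in proliferating and 1604, 2458 and 592 FPKM in differentiating callus. Only differentiating 1 and 2 were high, and differentiating 3 lay within the proliferating range. The means were 630.3 ± 206 and 1551 ± 934 FPKM (SD, n = 3), a log2 difference of 1.12 (SE 0.51, limma adjusted p 0.416). For KP509_31G006300, whose values are given above, the log2 difference was 0.72 (SE 0.37, limma adjusted p 0.453). It moved to 1.24, with a limma adjusted p of 0.0414, without proliferating 2 and differentiating 3 together. That of KP509_03G093300 then moved to 1.95, with an adjusted p of 0.0137. Both libraries ranked the members much like libraries of the other group, so leaving them out tends to part the groups. With both left out limma called 7.67% of all tested genes, against 0% with every library kept. These adjusted p therefore depend on that choice of libraries. Without differentiating 2 the log2 differences of KP509_31G006300 and KP509_03G093300 were 0.42 and 0.68, with limma adjusted p of 0.795 and 0.75.

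Smaller differences came with groups that did not overlap. KP509_07G093900 had 1549, 1420.1 and 1245 FPKM in proliferating 1 to 3 and 1795, 2177 and 1704 FPKM in differentiating 1 to 3, and differed by 0.43 on the log2 scale (limma adjusted p 0.376). KP509_19G020700 differed by 0.37 (SE 0.16, limma adjusted p 0.394), and its log2 difference stayed between 0.34 and 0.39 over all 14 alternatives, with adjusted p from 0.269 to 0.809. KP509_02G040500 had 1265, 1316 and 1223 FPKM in proliferating and 1561, 1672 and 1390.2 FPKM in differentiating callus (0.28, limma adjusted p 0.453). Differentiating 3 was the lowest differentiating library in all 3. KP509_01G091900 and KP509_24G020900 differed by 0.26 and 0.23, and in KP509_29G039500, at 0.47, the groups overlapped.

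The 2 largest differences in the other direction belonged to genes next to each other. KP509_12G020400 had 2378, 1578 and 3698 FPKM in proliferating 1, 2 and 3 and 494, 316 and 2741 FPKM in differentiating 1, 2 and 3, and KP509_12G020300 had 1785, 1088 and 2836 FPKM in proliferating and 407, 264 and 1959 FPKM in differentiating callus. Both were lowest in differentiating 1 and 2, and in differentiating 3 both lay above proliferating 1. The group means were 2551 ± 1070.3 and 1184 ± 1352 FPKM for KP509_12G020400 and 1903 ± 880.2 and 877 ± 940.5 FPKM for KP509_12G020300 (SD, n = 3), so that the SD in differentiating callus exceeded the mean. Their log2 differences were -1.67 (SE 0.78) and -1.57 (SE 0.74), with limma adjusted p of 0.421 and 0.424. Without differentiating 3 these were -2.60 and -2.43, with adjusted p of 0.0398 and 0.0458. Without differentiating 2 they shrank to -1.05 and -0.98, with adjusted p of 0.756 and 0.761.

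KP509_15G064100 and KP509_01G016800 followed the same course. KP509_15G064100 had 1811, 773 and 1867 FPKM in proliferating and 416, 286 and 1561 FPKM in differentiating callus, a log2 difference of -1.27 (SE 0.65, limma adjusted p 0.456). KP509_01G016800 had 1457, 917 and 1538 FPKM in proliferating and 476, 316 and 1612 FPKM in differentiating callus, where differentiating 3 was the highest library of all (-1.03, SE 0.57, limma adjusted p 0.486). Without differentiating 3, KP509_01G016800 stood at -1.71 with an adjusted p of 0.0463 and KP509_15G064100 at -1.99 with one of 0.0634. Without differentiating 2 these were -0.54 and -0.77, with adjusted p of 0.832 and 0.794. KP509_11G019400 had 1591, 1905 and 2725 FPKM in proliferating 1 to 3 and 683, 814 and 1748 FPKM in differentiating 1 to 3, and again only differentiating 1 and 2 were low (-1.03, limma adjusted p 0.36). With 1 library left out its difference ran from -0.76 without differentiating 1 to -1.44 without differentiating 3, with adjusted p of 0.794 and 0.0508.

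KP509_31G045200 had lower values in all 3 differentiating libraries than in any proliferating one. It had 1529.6, 1710.3 and 2457 FPKM in proliferating 1, 2 and 3 and 1192, 1036 and 929 FPKM in differentiating 1, 2 and 3, means of 1899 ± 492 and 1052 ± 132 FPKM (SD, n = 3), 1.80-fold lower, and differentiating 3 was its lowest library. On the log2 scale it differed by -0.83 (SE 0.22, limma adjusted p 0.311), a value that lay between -0.97 and -0.63 over all 14 alternatives, with adjusted p from 0.128 to 0.794. Groups did not overlap either in KP509_1Z012200, which had 1882, 1411 and 1461 FPKM in proliferating and 1167, 838 and 1369.7 FPKM in differentiating callus, and which differed by -0.51 (limma adjusted p 0.402). KP509_04G036400, KP509_37G026700, KP509_11G027700 and KP509_03G061300 were apart by log2 differences of -0.40, -0.39, -0.33 and -0.34, with limma adjusted p of 0.389, 0.417, 0.398 and 0.445.

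Members also varied together over the libraries. Of 3570 pairs of members, 73 (2.04%) had a Pearson r of log2(FPKM + 1) of at least 0.95 over the 6 libraries, against 1.18% of pairs among the genes that averaged 100 to 1000 FPKM, and 46 pairs (1.29%) had an r of -0.95 or lower, against 0.82%. The 6 points share the depth and scaling of each library, so these values describe the libraries and carry no test. They rest on few points: the count was 135 without proliferating 2, 154 without proliferating 3 and 117 without differentiating 3. An r of 0.95 is easier to reach over fewer libraries, and the background share is given only over all 6. At least 1 such partner was found for 53 members, and KP509_26G061200 had the most, 8. Clustering by correlation (average linkage, cut at a distance of 0.2) put 72 members into 11 sets of at least 3, and the other 13 into none.

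The largest set held 17 members, led by KP509_24G048500, and included KP509_11G084400, KP509_10G004300 and KP509_37G056600. Its summed level was 33484, 46944 and 46849 FPKM in proliferating 1, 2 and 3 and 45277, 53215 and 40172 FPKM in differentiating 1, 2 and 3. Proliferating 1 was lowest and differentiating 3 next, and these were also the libraries with the lowest summed FPKM of all genes, 954443 and 953954, whose part in the pattern was not tested. The pattern therefore ran across the groups, and the log2 differences of its members lay between -0.07 and 0.30, with overlapping groups in all 17. Within it, KP509_30G024600 and KP509_34G033800 had an r of 0.998 and KP509_11G084400 and KP509_26G014800 one of 0.995.

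A set of 10 members held the 4 most variable genes. It was led by KP509_35G022000 and held KP509_14G030900, KP509_17G029700, KP509_12G020400, KP509_12G020300, KP509_13G059300, KP509_26G041300, KP509_15G064100, KP509_01G016800 and KP509_37G026700. Its summed level was 21285, 14359.5 and 24999 FPKM in proliferating 1, 2 and 3 and 10891, 8747 and 21383 FPKM in differentiating 1, 2 and 3. All 10 members were at 1000 FPKM or more in proliferating 1, proliferating 3 and differentiating 3, but 8 in proliferating 2, 5 in differentiating 1 and 4 in differentiating 2. KP509_35G022000 and KP509_15G064100, on different chromosomes by their locus tags, had an r of 0.996. KP509_14G030900 had 2732, 1469 and 3967 FPKM in proliferating 1 to 3 and 1689.6, 1241 and 3294 FPKM in differentiating 1 to 3, and KP509_17G029700 and KP509_13G059300 varied less, within 1.38-fold and 1.27-fold ranges. The share of summed FPKM held by the set was 2.23%, 1.46% and 2.47% in the proliferating and 1.1%, 0.851% and 2.24% in the differentiating libraries.

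A set of 8 members ran opposite to it. It held KP509_31G006300, KP509_22G017900, KP509_04G069000, KP509_29G078700, KP509_22G043800, KP509_30G013900, KP509_03G093300 and KP509_30G028200, and its summed level was 10886, 14141 and 11594 FPKM in proliferating 1, 2 and 3 and 18075, 23393 and 11789.7 FPKM in differentiating 1, 2 and 3. Between these 8 and the 10 members above, 32 pairs had an r of -0.95 or lower, out of the 46 such pairs in all. The mean profiles of the sets had an r of -0.99 over the 6 libraries. KP509_22G017900 had 1267, 1722 and 1523 FPKM in proliferating 1 to 3 and 1872, 2369 and 1423 FPKM in differentiating 1 to 3, and KP509_22G043800 had 1065, 1264 and 1074 FPKM in proliferating 1 to 3 and 1391, 1545 and 1128 FPKM in differentiating 1 to 3. Differentiating 2 was highest in both, proliferating 1 lowest, and the groups overlapped in all 8 members.

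Sets that followed the labelled groups were small. KP509_19G020700, KP509_01G091900 and KP509_27G039300 formed a set with groups apart in all 3 members and summed levels of 5584, 6084 and 5923 against 8602, 8934 and 7527 FPKM (proliferating against differentiating). KP509_15G067600, KP509_31G045200 and KP509_04G036400 formed another, apart in all 3 in the other direction, at 4279.6, 4664 and 6251 against 3706, 3570.2 and 3131 FPKM, and had the tightest correlations, an r of 0.958 or more in every pair. In these, differentiating 3 lay on the differentiating side. The labels were not used in the clustering, but such a profile is also what makes groups apart, so neither set adds to the counts above.

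Of the other sets, one of 9 members led by KP509_13G060700 and KP509_03G061300 had 12645, 14987 and 14316 against 11688, 13002 and 10340.0 FPKM, lowest in differentiating 3, with groups apart in 4 members. The 6 members led by KP509_14G044400 and KP509_24G020900 had 11477, 10505 and 10196 against 13029, 14249 and 11511 FPKM, also with 4 apart. The 6 led by KP509_17G068300, KP509_21G070800 and KP509_39G019100 were low in proliferating 1, at 10369.7 FPKM, and lay between 13092 and 15526 FPKM elsewhere. KP509_32G017900, KP509_20G088400, KP509_02G034200 and KP509_31G025200 were high in proliferating 1, at 9055 FPKM against 6446 to 7508 FPKM elsewhere. The last 2 sets, with KP509_21G032100 and KP509_09G029600 as their most abundant genes, held 3 members each.

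**Figure D4:**
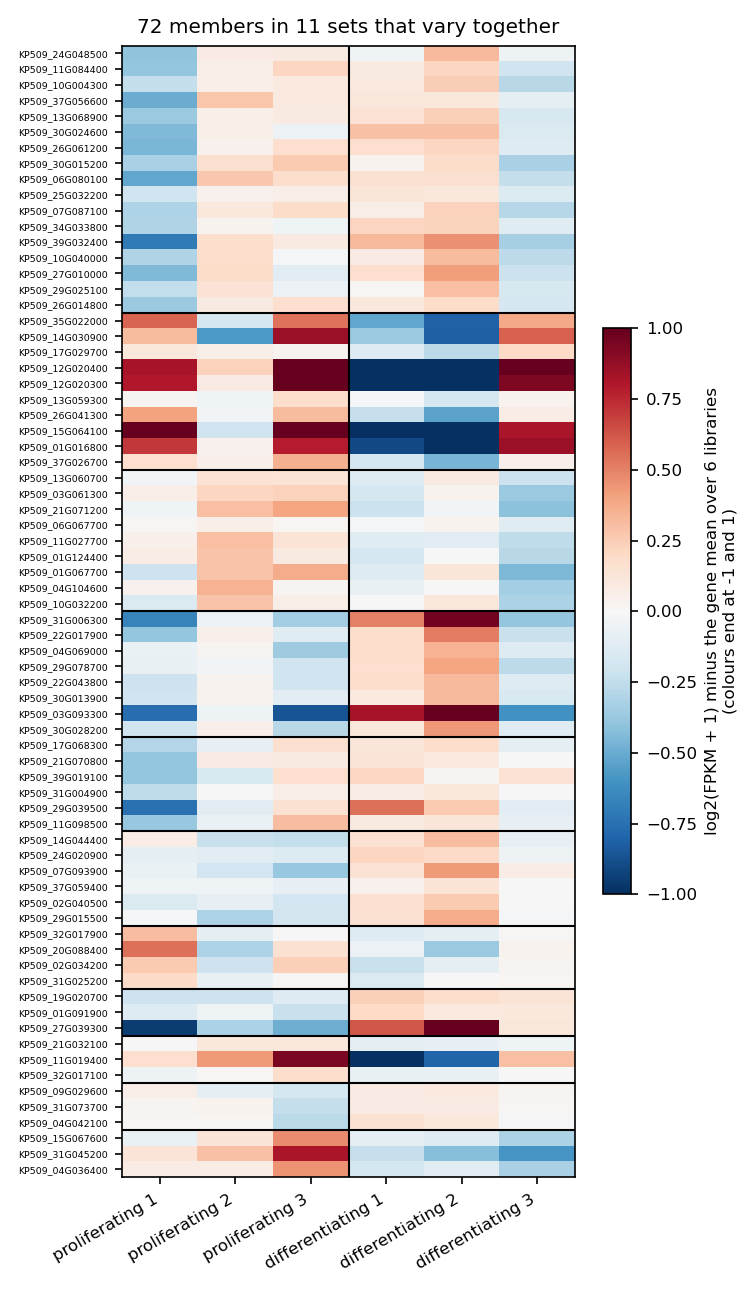
Deviation of log2(FPKM + 1) from each gene's mean over 6 libraries (colour, ending at -1 and 1) for the 72 members in 11 sets that vary together, with sets parted by horizontal lines and the groups by a vertical one. The second set from the top is red in proliferating 1, proliferating 3 and differentiating 3 and blue in differentiating 1 and 2, and the fourth shows the reverse.

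By their locus tags, 84 members lay on 30 of the 39 chromosomes and 1, KP509_1Z012200, on unplaced sequence. Chromosomes 11 and 31 held 6 members each and chromosome 29 held 5. In the gene order of the C.richardii_v2 assembly table, only KP509_12G020300 and KP509_12G020400 were immediate neighbours. A further 5 pairs lay within 10 places. Of 134 adjacent genes listed in the table, 17.9% averaged 100 FPKM or more, against 6.2% of all 26544 placed genes listed. Within 10 places to either side the share was 10.3% of 1382 genes, counted once for each member they lie near. The shares near members include members that lie near other members, among them KP509_12G020300 and KP509_12G020400, and these are abundant by the rule. Of the 24 adjacent genes at 100 FPKM or more, 2 were members, namely this pair. No difference between the shares was tested.

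The neighbouring pair KP509_12G020300 and KP509_12G020400 had the highest r of all pairs of members, 0.998. The second gene was between 1.2 and 1.45 times the first in every library. Nearby genes took the same course at lower levels, and they are named after their values were seen. KP509_12G019600, 7 places before KP509_12G020300, had 854, 549 and 1626 FPKM in proliferating and 213, 120.0 and 1124 FPKM in differentiating callus (r = 0.997 with it), and KP509_12G019700 had 570.1, 357 and 1187 FPKM in proliferating and 138, 62.0 and 799.7 FPKM in differentiating callus (r = 0.994). KP509_12G020100 ran from 4.38 FPKM in differentiating 2 to 46.6 FPKM in proliferating 3 (r = 0.984). All 5 genes were thus lowest in differentiating 2, next lowest in differentiating 1 and highest in proliferating 3. Near-identical genes can share reads, and whether that touches these levels was not tested.

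KP509_15G064100 and KP509_01G016800 had such neighbours too. KP509_15G063700, 4 places before KP509_15G064100, had 640.5, 345 and 680.2 FPKM in proliferating 1 to 3 and 165, 94.1 and 515 FPKM in differentiating 1 to 3 (r = 0.989), and KP509_15G063800 had 806, 394 and 745 FPKM in proliferating 1 to 3 and 145, 109.7 and 488 FPKM in differentiating 1 to 3 (r = 0.978). KP509_15G064400, 3 places after it, ran from 10.1 to 150.5 FPKM (r = 0.981). KP509_01G016900, next to KP509_01G016800, had 746, 444 and 706 FPKM in proliferating 1 to 3 and 292, 152 and 728 FPKM in differentiating 1 to 3 (r = 0.989), and KP509_01G017000 had 533, 292 and 514 FPKM in proliferating 1 to 3 and 263, 145 and 523 FPKM in differentiating 1 to 3 (r = 0.968). In each of these places differentiating 1 and 2 were the lowest libraries. In all, 10 of the 84 placed members had a gene with an r of at least 0.95 within 10 places. Up to 20 places were searched for each. Among genes that averaged 100 to 1000 FPKM, 1.18% of pairs reached such an r wherever they lay. That is a share of pairs and not of members, so it cannot be set against 10 of 84. The genes searched near members also included ones that averaged as little as 1 FPKM. No matching count was made around other genes, so the number of such members is not a result about neighbours.

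KP509_12G011500 and KP509_12G011700, with 1 gene between them that the FPKM table does not list, had an r of 0.935. KP509_12G011500 was 1.88 to 2.51 times as high as KP509_12G011700, which had 2676, 1717 and 3701 FPKM in proliferating 1 to 3 and 2512, 2259 and 3901 FPKM in differentiating 1 to 3. Both were highest in differentiating 3 and proliferating 3. A little further on, KP509_12G011900 and KP509_12G012000 had the same values in all 6 libraries, from 244 to 507 FPKM. Such identical values occurred in 119 tested genes but in none of the members.

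On chromosome 39, KP509_39G018900 and KP509_39G019100 lay in a stretch where many genes were abundant. KP509_39G018900 had 1855, 2146 and 2469 FPKM in proliferating 1 to 3 and 2426, 1829 and 1995 FPKM in differentiating 1 to 3, and KP509_39G019100 had 1995, 2360.2 and 2941 FPKM in proliferating 1 to 3 and 3026, 2678 and 2908 FPKM in differentiating 1 to 3, with an r of 0.597. Within 10 places of each, 9 genes averaged 100 FPKM or more, the most for any member. They included KP509_39G018600 at a mean of 994 FPKM and KP509_39G019300 at 799 FPKM. KP509_39G018800, directly before KP509_39G018900, had 44.0, 575 and 44.7 FPKM in proliferating 1 to 3. In differentiating 1 to 3 it had 675, 1135 and 61.2 FPKM, a course unlike that of KP509_39G018900 (r = -0.04). The gene before KP509_39G018800, KP509_39G018700, took a similar course at lower levels. It had 0, 59.8 and 0.47 FPKM in proliferating and 67.0, 135 and 0 FPKM in differentiating callus.

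Like the pair on chromosome 39 and that of KP509_12G011500 and KP509_12G011700, the other 3 pairs did not reach an r of 0.95. KP509_13G058900 and KP509_13G059300, 4 places apart, had an r of 0.828 and levels of 1023 to 1336 and 1227 to 1561 FPKM. The genes between them included KP509_13G059000 at a mean of 469 FPKM and KP509_13G059200 at 3.61 FPKM. KP509_21G070800 and KP509_21G071200, also 4 places apart, had an r of 0.161, and the ratio of the first to the second ran from 1.59 to 2.68. KP509_32G017100 and KP509_32G017900, 8 places apart, had an r of -0.01.

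**Figure D5:**
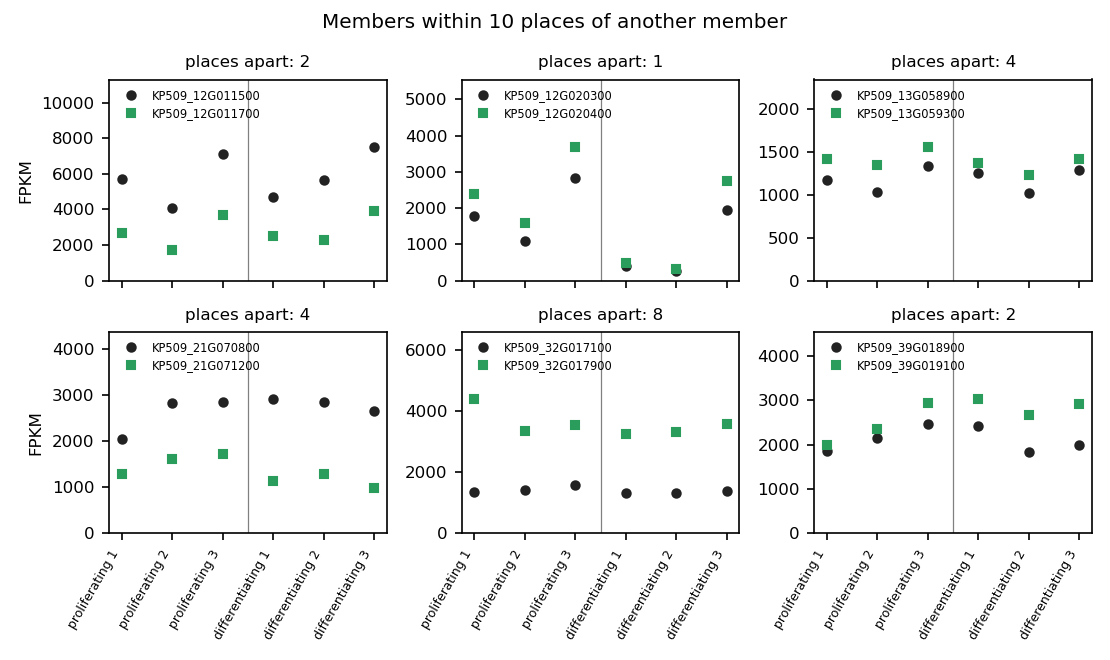
FPKM (linear axis from 0) of the 6 pairs of members within 10 places of each other, with 1 point per library and a grey line between the proliferating and the differentiating libraries. KP509_12G020300 and KP509_12G020400 rise and fall together from 264 to 3698 FPKM, while KP509_21G070800 and KP509_21G071200 do not.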

How the data were processed

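RNA of 6 callus libraries was isolated with CTAB, selected for poly(A), reverse-transcribed from random primers and read from both ends at 150 bp on DNBSEQ, per the labels' protocols. The authors deposited FPKM per gene and library, to 2 decimals and with no pooling, per the file headers. Per the submitters' processing notes, the tools included RSEM, DESeq2, Bowtie2 2.2.5 and HISAT2 2.1.0, with no role or order. No source used here names the genome build, so coordinates are left out and the C.richardii_v2 table served only for gene order, in which all 85 members were found. Sequences and gene lists by product were not used here.

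FPKM are not counts, so limma 3.58.1 in R 4.3.3 was run on log2(FPKM + 1), with group as the only term, a mean-variance trend and two-sided tests, on the genes averaging 1 FPKM or more. A gene was called at a Benjamini-Hochberg adjusted p under 0.05. A log2 difference on this scale understates the change of low genes. The fit was tested on simulated data with noise drawn independently for each gene. Such data lack the deviations that many genes share within a library here, so that test gives no assurance about them. Python 3.11.15, NumPy 2.4.6, pandas 2.3.3, SciPy 1.17.1 and matplotlib 3.10.9 were used. Read numbers are unknown, so no counting interval can be given. Low-value ratios were taken in genes averaging under 3 FPKM, from values of 0.3 FPKM upward.

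The members, the lists and the tests were chosen with earlier results of these data known. Named were the 10 most abundant members, the 5 with the largest and the 5 with the lowest log2 difference, up to 6 in each direction with groups apart, the 5 steadiest and 5 most variable, the 5 with the widest ranks, 3 on each side of the threshold, neighbouring members and up to 4 of each set. Some further members and neighbours were named after their values were seen. Alternatives covered pseudocount, filter, scaling, replicate block, and leaving out libraries.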

Additional observations from a re-analysis of the deposited data

How the results depend on the processing

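With 1 library left out, limma called 0 to 4 members and 0 to 413 of all genes, both highest without differentiating 3. With both proliferating 2 and differentiating 3 left out, limma called 9 members (10.6%) and 1716 genes (7.67% of those tested). In that setting 24 members (28.2%, against 25% of tested genes) had an unadjusted p under 0.05 and 63 (74.1%, against 56.8%) had groups apart. Leaving out 1 library gave 2 to 15 members (2.35% to 17.6%) with an unadjusted p under 0.05, against 5.8% to 20.5% of tested genes. With no filter on low values there were 3 such members, 3.53% against 10.4%. Groups were apart in 17 to 49 members (20% to 57.6%) with 1 library left out, against 21.3% to 40.1% of tested genes. The share of members apart was above that of tested genes without proliferating 1 or differentiating 3. It was below with any other library left out, as without proliferating 2 (29.4% against 34.1%). Pairs varying together numbered 79 to 154 with 1 library left out. Those pairs numbered 36 by Spearman rho and 151 with group means removed. The number of members was 51 when every library had to reach 1000 FPKM, and 84 to 87 with 1 library left out. The share difference ran from -0.0043 to 0.816 points with 1 library left out. The log2 difference of KP509_12G011500 turned to -0.13 after quantile normalization and to -0.30 with both libraries left out, and ran from -0.12 to 0.28 with 1 left out. With 1 left out, KP509_24G048500 lay between -0.010 and 0.24 and KP509_11G012100 between -0.15 and 0.12. Apart from the smaller number of libraries, the cause was not tested.

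The replicate numbers were not taken as a pairing, since nothing says what libraries with the same number share. Their deviations from the group means correlated at -0.0955, 0.572 and 0.45 for numbers 1, 2 and 3. For different numbers the values ran from -0.635 to 0.343, below those of numbers 2 and 3 but on both sides of that of number 1. Deviations from a group mean cancel within the group, so these correlations are not independent of one another. Whether the libraries are paired was not tested. The replicate block called 0 members and 115 genes, with 14 members at an unadjusted p under 0.05, 16.5% against 17.2% of tested genes. The counts at a log2 difference of at least 1 were recomputed by choice made after seeing the data. They ran from 1 to 8 members and from 420 to 1679 genes with 1 library left out, against 7 and 778, and were 2214 genes with both left out. Such genes numbered 1418 with a pseudocount of 0.1 and 178 with 10. Other alternatives changed no call of a member and kept these counts within 1.5 times. Absolute depth is unknown. Promoter motifs, sequence features and lists by product were planned and not run, as no sequences or products were at hand.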

Other observations

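A gene listed under the ID BGI_novel_G000541 also averaged above 1000 FPKM but lacks the prefix of the rule. It had 1136, 891 and 1173 FPKM in proliferating and 733, 1805 and 1122 FPKM in differentiating callus, and differentiating 1 and 2 were its lowest and its highest library.

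In all, 55 genes reached 1000 FPKM in at least 1 library without being members, 33 of them in 1 library only. They were ordered by the highest library over the mean of all 6, not by highest over lowest as above. The first in this order, at 2.83, was KP509_11G004400. KP509_11G004400 had 137, 639 and 165 FPKM in proliferating and 747, 1731 and 247 FPKM in differentiating callus. It was high in differentiating 2, differentiating 1 and proliferating 2 and low in the other 3 libraries. KP509_15G047900 had 245, 831 and 460.4 FPKM in proliferating and 1130.0, 2361 and 562 FPKM in differentiating callus, with the same 3 libraries at the top. KP509_02G055300 had 320.2, 560.1 and 214 FPKM in proliferating and 1172, 1948 and 647 FPKM in differentiating callus, where all differentiating values were above all proliferating ones. These genes were named after their values were seen.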
